A study of Mus musculus with 6 samples.

Results

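Gata4, Gata5 and Gata6, which encode zinc-finger transcription factors, and Foxa1, Foxa2 and Foxa3, which encode forkhead transcription factors, are lineage genes of the endoderm, the germ layer that gives rise to the stomach. They were taken as a fixed list of 6 genes among 21887 protein-coding genes by name, with earlier results of these data known. All peak summits inside each gene or within 50 kb of its start or end were collected from 6 chromatin immunoprecipitation sequencing libraries of mouse gastric corpus epithelium. The libraries were H3K27ac from a YAP-activated tumor (1 library) and from normal stomach (1 library), and YAP from tumor (2 libraries) and from normal stomach (2 libraries). Tumor mice carried CluCreERT2, a tamoxifen-activated Cre at the Clu locus, R26rtTA, a tetracycline transactivator at Rosa26, and HA-Yap+ (an HA-tagged Yap transgene). Cre activity in this model is thus tied to cells that use the Clu locus, while the material was the epithelium of the whole corpus. Normal mice were WT. The labels give the same treatment for all libraries, tamoxifen at 2 mg on 5 days and then doxycycline in the food for 14 days, and do not say how many animals entered a library.

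GATA factors bind GATA motifs and forkhead box A factors bind forkhead motifs in closed chromatin, which they help to open in gut, liver and pancreas development. In the stomach, GATA4 and GATA6 are factors of the glandular epithelium. FOXA1 and FOXA2 act broadly in endoderm-derived epithelia, and FOXA3 is best known from liver and intestine. YAP, the coactivator restrained by the Hippo kinases, does not bind DNA itself and reaches it mainly through TEAD factors. H3K27ac is an acetylation of histone H3 found at active promoters and enhancers.

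Each library is represented by a list of summits with the authors' score, which is −log10 of the p or q given by the peak caller, and depth is unknown. The lists held 66896 H3K27ac summits in tumor and 22574 in normal epithelium on the main chromosomes, and 38268 and 53904 YAP summits in the libraries labelled tumor 1 and tumor 2, against 1654 and 2141 in those labelled normal 1 and normal 2. The words in the peak names put tumor 1 with the normal H3K27ac library and normal 2 with the tumor H3K27ac library, so directions between the YAP groups rest on labels that the files contradict for these 2 libraries. H3K27ac lay at all 6 epithelial markers listed for the check (Epcam, Cdh1, Krt8, Krt18, Krt19, Cldn18) in both tissues, and at 6 of 7 gastric corpus markers in tumor and 6 of 7 in normal epithelium. When the tumor list was shortened to the length of the normal one, 3 of the 7 corpus markers kept a tumor summit. Of the markers of other cells, the full tumor list reached 7 of 7 for mesenchyme, muscle and endothelium, 2 of 5 immune and 2 of 3 squamous markers, against 3, 1 and 0 in the normal list, and the shortened tumor list reached 2, 0 and 0. Liver, pancreas, intestine and lung markers were reached at 1 of 2, 2 of 2, 2 of 3 and 2 of 2 in the full tumor list. In the shortened tumor list and in the normal list it was 1, 0, 1 and 1. Of all 21887 protein-coding genes, 16695 had a summit inside or within 1 kb in the full tumor list. The shortened list reached 13129 and the normal list 12250, so the marker counts alone do not identify the tissue. The part of other cells in the values below was not tested.

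YAP lay at all 6 loci in the tumor libraries. Every gene had at least 5 sites found in both tumor libraries, meaning a summit of tumor 1 and one of tumor 2 within 200 bp of each other, and the 6 loci held 41 such sites. This is a property of most genes, since 79.2% of all protein-coding genes had such a site within 50 kb. In the libraries labelled normal the loci held 0 and 2 summits and no site of both libraries, as was the case for most genes, of which 2.05% had one.

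Gata4 had 13 and 17 YAP summits in tumor 1 and tumor 2, against 0 and 2 in normal 1 and normal 2. Gata5 had 9 and 10 in the tumor libraries and 0 in both normal libraries, and Gata6 had 7 and 8, likewise against 0. Foxa1 had 5 and 7 in the tumor libraries, Foxa2 had 6 and 10, and Foxa3 had 6 and 7, with 0 in both normal libraries at each of these genes. At all 6 genes both tumor libraries were above both normal libraries, and 79.2% of all genes shared this lack of overlap.

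The mean difference was smallest at Foxa1, with 6.0 ± 1.41 summits in tumor and 0 in normal (SD, n = 2 each), and largest at Gata4, with 15.0 ± 2.83 in tumor and 1.0 ± 1.41 in normal (SD, n = 2 each). An exact two-sided permutation test gave p = 0.333 at each gene (n = 2 per group), the smallest p this design allows, so no gene could pass a threshold. The contrast also depended on list length: with all 4 YAP lists shortened to the 1654 best summits, the loci held a mean of 1 summit in tumor and 1 in normal. With the libraries regrouped by those peak-name words, the mean was 30.5 summits for the pair of tumor 2 and normal 2, against 23 for the pair of tumor 1 and normal 1. This p rests on the order of the 4 libraries and does not measure their spread, and 17346 of 21887 genes shared it. The labels do not say whether libraries of 1 group came from different animals, so the spread among libraries may be technical.

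**Figure D1:**
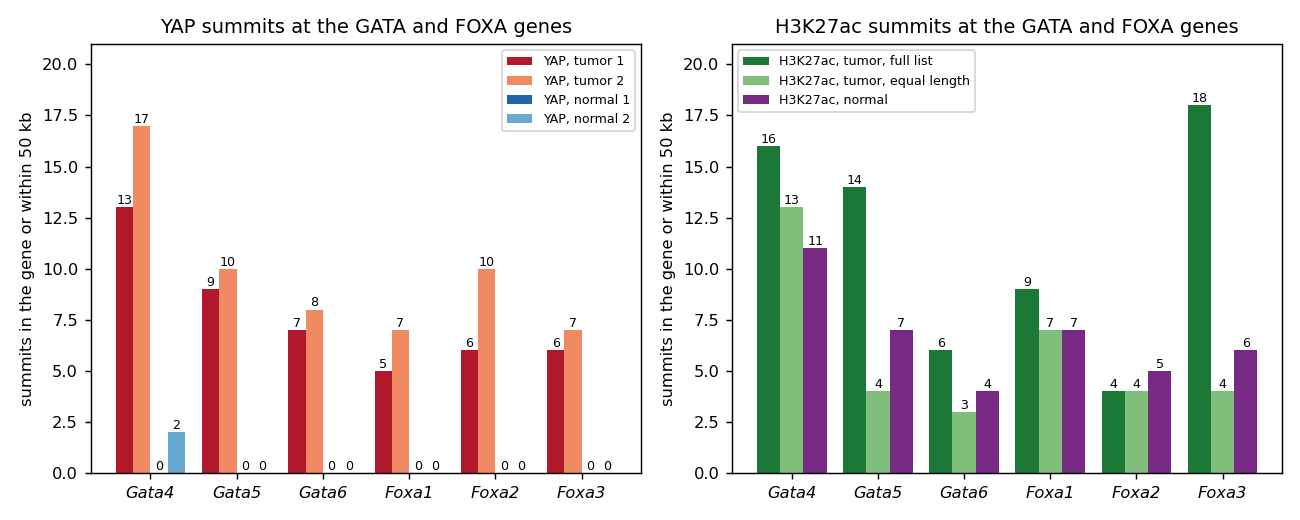
Summits in the gene or within 50 kb (vertical axis) at each of the 6 genes, for YAP in tumor 1, tumor 2, normal 1 and normal 2 (left) and for H3K27ac in the full tumor list, the tumor list at equal length and the normal list (right). Each bar is 1 list, with its count above it. YAP counts were 5 to 17 in the tumor libraries, and 0 in the normal libraries except for the 2 summits of normal 2 at Gata4.

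Gata4 carried the most YAP sites of both tumor libraries, 11, and 2.39% of all genes had as many. Its window was also the longest, 172.8 kb, and per 100 kb it held 6.37 sites, a density reached by 9.09% of genes. Gata5 had 8 sites (10.7% of genes had as many) and the highest density of the 6, 7.25 per 100 kb, reached by 5.71% of genes. Gata6 and Foxa2 had 6 sites each (24.1%), and Foxa1 and Foxa3 had 5 each (33.4%). The median over all genes was 3 sites. Gata6, Foxa1, Foxa2 and Foxa3 therefore stood in the upper part of a broad distribution shared with many other genes.

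**Figure D2:**
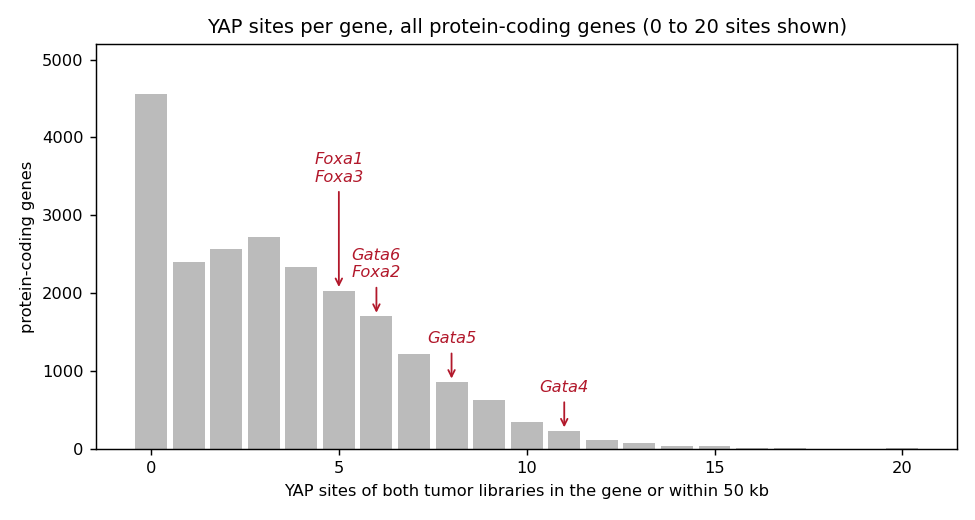
Number of protein-coding genes (vertical axis) by their number of YAP sites of both tumor libraries in the gene or within 50 kb (horizontal axis, 0 to 20 sites shown). Arrows mark the members, at 5 sites (Foxa1, Foxa3), 6 (Gata6, Foxa2), 8 (Gata5) and 11 (Gata4), against a median of 3 over all genes.

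The sites at these loci were of middle rank. For each site the worse of its 2 ranks, as a share of its own list counted from the best score, had a median of 49.1%, close to the 46.0% of all 29492 sites of both tumor libraries. In the best 10% of both lists were 1 of the 41 sites and 3047 of all 29492. It lay at chr2:180289946 (GRCm38, as are all positions here), ranked 469 in tumor 1 and 347 in tumor 2, inside the Gata5 window but 46 bp outside the end of the neighbouring gene Rbbp8nl and 35142 bp outside Gata5. The 2 summits of a site lay a median of 53 bp apart, with a range of 1 to 186 bp. Of the tumor 1 and tumor 2 summits at the loci, 89.1% and 69.5% had a partner in the other library, against 77.1% and 54.7% of the whole lists.

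Of the 41 sites, 9 lay inside one of the 6 genes, 5 inside a neighbouring protein-coding gene only, and 27 between protein-coding genes. Another gene's end was nearest for 10 sites: 3 at Gata5 (Rbbp8nl), 3 at Foxa3 (Mypop and Irf2bp1), 2 at Gata4 (Fdft1, which encodes squalene synthase, and Neil2, which encodes a DNA repair glycosylase) and 2 at Foxa1 (Ttc6 and Mipol1). The rule measures to gene ends, so a nearest end of another gene does not assign a site to that gene. The site counted for Ttc6 lay inside Foxa1, 11 bp from the Foxa1 start. It was 582 bp from an end of Ttc6 and 1907 bp from an end of Foxa1. With only the sites nearest to an end of the gene itself, Gata4 kept 9, Gata6 and Foxa2 6 each, Gata5 5, Foxa1 3 and Foxa3 2. All 6 genes thus kept at least 1, as did 60.7% of all genes. Gata6 and Foxa2 kept all of theirs.

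**Figure D3:**
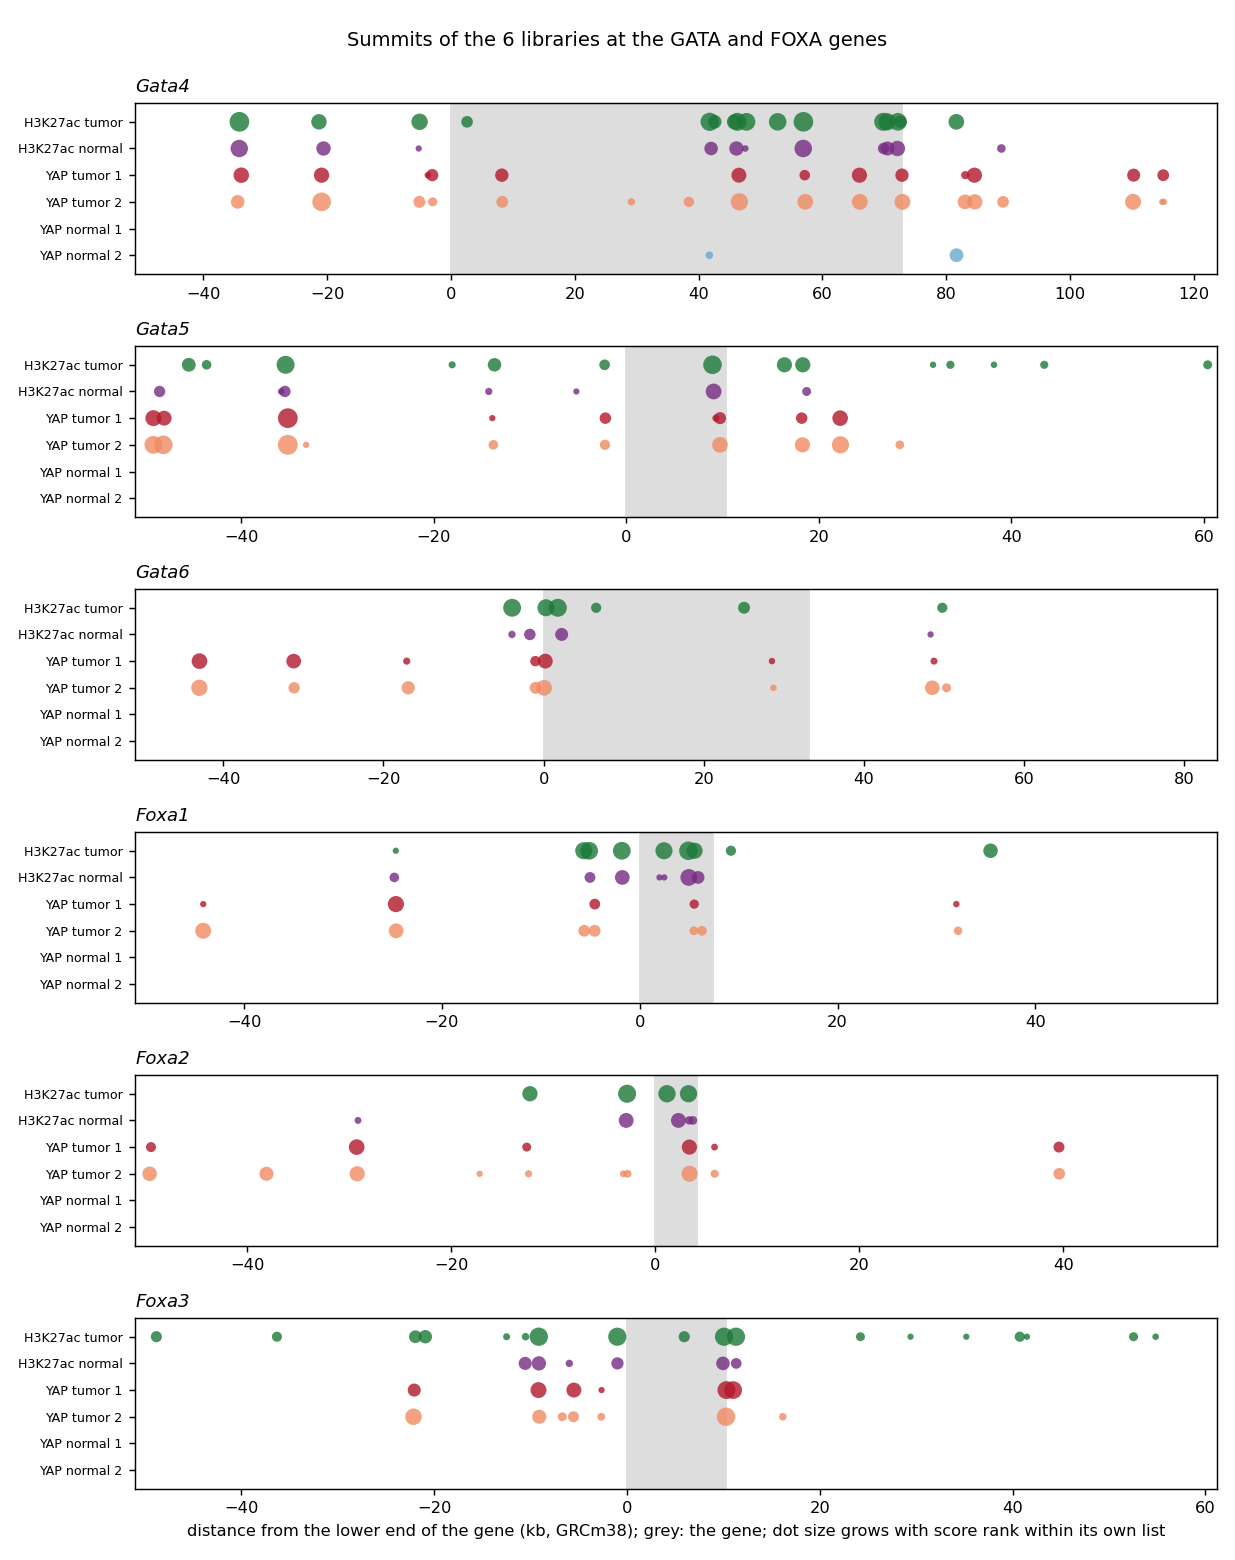
Position of every summit of the 6 libraries at each gene, in kb from the lower end of the gene (horizontal axis), with the gene in grey and 1 row per library, tumor above normal for each antibody. Larger dots have better score ranks within their own list. YAP tumor dots sit at or near a gene end of all 6 genes and across the flanks, the normal 1 row is empty, and normal 2 has its 2 dots at Gata4.

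Every member had a YAP site of both tumor libraries within 1 kb of its start, where 48.0% of all genes had one. The starts of Gata5, Foxa1, Foxa2 and Foxa3, all on the minus strand, came from the RefSeq promoter table, and for Gata4 and Gata6 the nearer gene end was used in its place. The site nearest to a start lay 11 bp away at Foxa1, 51 bp at Foxa3, 86 bp at Gata4, 129 bp at Gata6, 156 bp at Gata5 and 264 bp at Foxa2. No normal YAP summit came closer than 8861 bp to any of these starts, and 0.0503% and 3.81% of all genes had a normal 1 or normal 2 summit within 1 kb. The Foxa3 site, at chr7:19023590, was the best ranked of them, at 4321 in tumor 1 and 4588 in tumor 2, that is within the best 11.3% and 8.51% of the lists. The Foxa1 site, at chr12:57546122, was the lowest, within the best 63.5% and 68.3%. The Gata4 site, at chr14:63271798, 86 bp outside the gene, ranked 14376 in tumor 1 and 12266 in tumor 2.

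The promoters of Gata5, Foxa1 and Foxa3 are shown because tumor YAP summits fell inside them. Each run is the 250 bases before the start, 5′ to 3′ on the minus strand, from RefSeq (GRCm38): Gata5 at chr2:180334680-180334929, Foxa1 at chr12:57546112-57546361 and Foxa3 at chr7:19023540-19023789. Capitals mark the bases from the summit of one tumor library to that of the other in Gata5 (6 bases) and Foxa3 (40 bases), and a forkhead motif in Foxa1 (7 bases).
Gata5: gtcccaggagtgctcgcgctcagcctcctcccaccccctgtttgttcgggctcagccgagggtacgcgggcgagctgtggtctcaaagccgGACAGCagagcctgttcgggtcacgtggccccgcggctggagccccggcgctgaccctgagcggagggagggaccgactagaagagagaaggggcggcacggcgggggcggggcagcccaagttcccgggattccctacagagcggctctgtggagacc
Foxa1: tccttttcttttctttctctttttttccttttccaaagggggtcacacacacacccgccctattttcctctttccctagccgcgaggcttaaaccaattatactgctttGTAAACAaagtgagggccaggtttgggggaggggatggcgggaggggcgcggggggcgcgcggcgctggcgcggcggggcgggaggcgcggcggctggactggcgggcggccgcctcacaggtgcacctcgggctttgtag
Foxa3: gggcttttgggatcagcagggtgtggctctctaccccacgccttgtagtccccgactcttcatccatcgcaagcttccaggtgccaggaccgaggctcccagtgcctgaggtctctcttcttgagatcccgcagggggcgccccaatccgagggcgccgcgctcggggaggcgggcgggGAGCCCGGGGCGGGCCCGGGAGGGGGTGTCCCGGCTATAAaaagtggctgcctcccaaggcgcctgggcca

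In the Gata5 promoter the YAP summits of tumor 1 and tumor 2 lay 159 and 154 bp before the start. In the Foxa3 promoter they lay 71 and 32 bp before it. In the Foxa1 promoter the tumor 1 summit lay 29 bp before the start, that of tumor 2 lay 6 bp past it and a tumor H3K27ac summit 63 bp before it. The forkhead motif of Foxa1, GTAAACA, begins 141 bases before the start.

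Motifs of 4 kinds were searched on both strands in the 300 bases from 250 before to 50 after each start, and member starts numbered 6 (3 of Foxa2). The forkhead letters TGTTTAC or TATTTAC occurred in 1 of the 6, that of Foxa1, against 6.54% of all 32851 RefSeq promoters of this length. The GATA letters AGATAA or TGATAA occurred in 1 of the 6, a start inside Foxa2, against 18.6%. The TEAD letters GGAATG occurred in 0 of the 6, against 14.7% of all promoters, and the AP-1 letters TGACTCA or TGAGTCA in 0 of the 6, against 5.2%. No motif of one kind contains a motif of another, and a missing match says only that the letters are not in these windows.

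**Figure D4:**
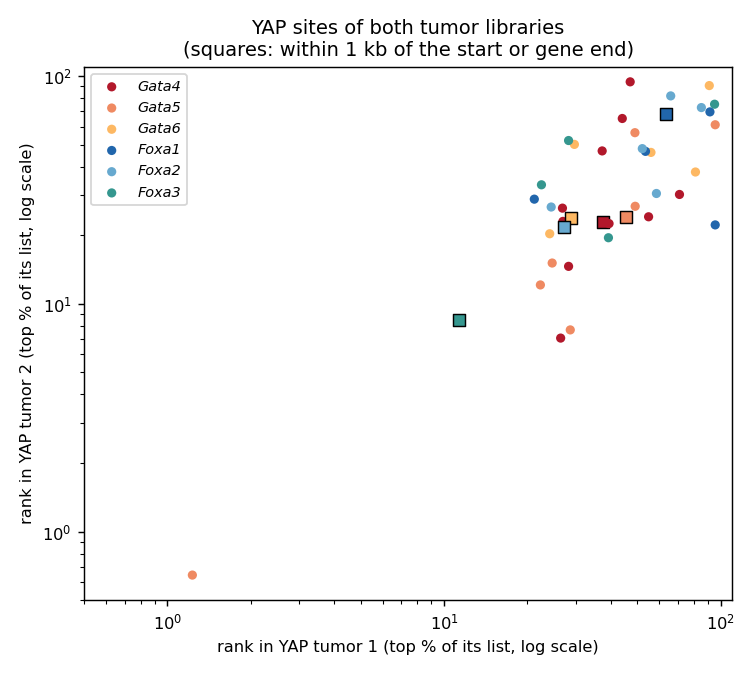
Rank of each of the 41 YAP sites in tumor 1 (horizontal axis) and tumor 2 (vertical axis), as a share of its list from the best score, both on log scales, coloured by gene. Squares are within 1 kb of the start, or of a gene end for Gata4 and Gata6. The square of Foxa3 has the best ranks of the squares (11.3% and 8.51%), and the single dot at lower left is the site next to Rbbp8nl (1.23% and 0.644%).

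The site at the start of Gata6, at chr18:11052639 and 129 bp inside the gene, ranked 11019 in tumor 1 and 12796 in tumor 2. Away from the starts, the best ranked sites of several genes, by the worse of the 2 ranks, lay in the flanks. At Gata6 it lay 42978 bp outside the gene at chr18:11009532, ranked 9213 in tumor 1 and 10920 in tumor 2, with the nearest H3K27ac summit 39041 bp away in tumor and 39021 bp away in normal. At Foxa2 it lay 29260 bp outside the gene at chr2:148013617, inside the noncoding gene 9030622O22Rik and 106 bp from a normal H3K27ac summit, while the nearest tumor H3K27ac summit was 16959 bp away. In tumor 2 alone the Foxa2 start site ranked higher (11746, against 14313), and its worse rank was close, 27.1% against 26.6%. At Foxa1 the best site lay 24631 bp outside the gene at chr12:57515997, with H3K27ac summits 24 bp away in tumor and 173 bp away in normal. In tumor 2 alone the site at chr12:57496506 ranked higher (11978, against 15549). The tumor H3K27ac summit at chr12:57515973 ranked 66459 of 66896 and the normal one at 57515824 ranked 13811 of 22574, both in the lower part of their lists.

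Gata4 was the 1 gene with YAP in a library labelled normal. The 2 summits of normal 2 ranked 1649 and 745 of 2141. The first lay inside Gata4 at chr14:63240655, 50 bp from a tumor H3K27ac summit and 281 bp from a normal one. The second lay 8861 bp outside the gene at chr14:63280573, 31 bp from a tumor H3K27ac summit and 7240 bp from the nearest normal one. Neither had a tumor YAP summit within 1 kb, the nearest being 3307 bp and 1373 bp away in tumor 2. Of all genes, 14.9% had a normal 2 summit within 50 kb and 5.96% a normal 1 summit.

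The H3K27ac comparison asked which elements at these genes carried the active mark in tumor and in normal epithelium. All 6 genes had H3K27ac summits in both tissues, where 94.0% of all genes had one in tumor and 75.0% in normal. With the tumor list shortened to the 22574 best summits, the loci held 35 summits in tumor and 40 in normal. The log2 ratio of these summed counts was -0.19 (1 added to each count). The median log2 ratio per gene was -0.29 for the 6 genes, against 0.00 over all genes. With the full tumor list the loci held 67 and 40, and the sign of the ratio of sums turned (0.73). The median per gene was then 0.49 for the 6 genes, against 1.00 over all genes. There is 1 library per tissue and no replicate check, and fewer cells with the mark cannot be told apart from less of the mark per cell.

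At equal list length Gata4 was the 1 gene with more H3K27ac summits in tumor, 13 against 11 in normal, as were 25.6% of all genes. Gata5 had 4 in tumor and 7 in normal, Foxa3 4 and 6, Gata6 3 and 4, and Foxa2 4 and 5. These 4 genes with fewer summits in tumor compare with 36.9% of all genes. Foxa1 had 7 in each. In the full tumor list 5 genes had more in tumor than in normal, as had 81.3% of all genes, with 16 at Gata4, 14 at Gata5, 6 at Gata6, 9 at Foxa1 and 18 at Foxa3. Foxa2 kept 4 in tumor against 5 in normal, as all 4 of its tumor summits were already in the shortened list, and 5.66% of all genes had fewer summits in the full tumor list than in the normal list.

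The tumor summits at the loci ranked above their list as a whole. Of the 67, 35 (52.2%) were among the best 22574, against 33.7% of the whole tumor list. Their median rank was at 26.9% of the full tumor list from the best score, and 9 lay in its best 10%. The 40 normal summits at the loci had a median rank at 49.7% of the normal list, and 0 lay in its best 10%. The best ranked tumor summit inside one of the 6 genes was in Gata4, at chr14:63255840, rank 1325, 27 bp from the best ranked normal summit at the loci, at 63255813 with rank 3028. A higher rank in tumor, 943, belonged to a summit of the Gata4 window inside Fdft1, at chr14:63164751.

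Most normal summits at the 6 loci had a tumor partner. Within 1 kb, 33 of the 40 normal summits (82.5%) had a summit of the full tumor list, and 33 of the 67 tumor summits (49.3%) had a normal one. Over the whole lists these shares were 79.8% of the normal and 24.7% of the tumor summits. With the tumor list at equal length 28 of 35 tumor summits (80.0%) had a normal partner, against 57.8% of that whole list. Of the normal summits 30 of 40 (75.0%) then had a tumor partner, against 67% of the whole normal list. With the full tumor list all 7 normal summits at Foxa1 had a partner, and at equal length 6 of 7 did. With either list it was 10 of 11 at Gata4 and 2 of 4 at Gata6.

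At the start of Gata6 the lists differed in position. The tumor list had a summit at chr18:11052798, 288 bp inside the gene and 82 bp from a YAP summit of tumor 1, ranked 10963. The normal list had its nearest summits 1723 bp before the gene and 2251 bp inside it, ranked 11068 and 9056. Gata6 was the 1 member without a normal H3K27ac summit within 1 kb of its start, while the other 5 had one at 229 to 687 bp. All 6 had a tumor summit within 1 kb, at 63 to 625 bp. Of all genes, 66.5% had such a summit in tumor and 50.6% in normal.

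At Foxa2 a tumor summit with no normal partner lay 12301 bp outside the gene at chr2:148030576 (rank 17614), 224 bp from a YAP site of both tumor libraries. A second lay inside the gene at chr2:148044010, 1120 bp from the nearest normal summit. The normal summit with no tumor partner was that at chr2:148013723 next to the YAP site in 9030622O22Rik, and it ranked 19046 of 22574. At Foxa3, 13 of 18 tumor summits had no normal partner, and none of these 13 was in the shortened tumor list, which held 4 of the 18. Those 4 lay inside Irf2bp1, Foxa3 and Sympk and 992 bp outside Foxa3, and all had a normal partner. At Gata5, 10 of 14 tumor summits had no normal partner, of which 1, 6024 bp outside the gene, was in the shortened list.

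YAP sites with and without H3K27ac were present at all 6 loci. Of the 41 YAP sites, 18 (43.9%, Wilson 95% interval 29.9 to 59.0) had a summit of the full tumor H3K27ac list within 1 kb. This compares with 52.0% of all YAP sites of both tumor libraries. For the normal H3K27ac list it was 19 (46.3%, 32.1 to 61.3), against 47.4% of all sites. The intervals cover counting error only, and sites of 1 locus are not independent. Both lists marked 14 sites (34.1%), tumor alone 4 (9.76%), normal alone 5 (12.2%) and neither 18 (43.9%). Over all YAP sites of both tumor libraries these shares were 40.6%, 11.4%, 6.8% and 41.2%, so the split was close to that of all sites. The sites with H3K27ac in both lists included those at the starts of Gata4, Gata5, Foxa1, Foxa2 and Foxa3, and the site at the start of Gata6 had it in tumor alone. Sites with neither were most of those of Gata4 (7 of 11) and Gata6 (4 of 6), and 1 of 8 at Gata5.

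The other genes of the endoderm network were read from lists with the same windows. Of 14 other endoderm factors, 10 (71.4%) had a YAP site of both tumor libraries, below the 79.2% of all genes, with a median of 2 sites against 3. Hnf4a, which encodes a nuclear receptor of liver, gut and stomach epithelium, had 9 and the best ranked of them, at chr2:163472623 with ranks 192 and 141 in tumor 1 and tumor 2. Nr0b2, which encodes a corepressor of nuclear receptors, had 10, and Cdx1, an intestinal factor gene, had 3. Hnf4g, Onecut2, Prox1 and Nr5a2 had none.

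At equal list length H3K27ac summits numbered 4 in tumor and 4 in normal at Hnf4a. Of the 14, 7 had more in tumor, against 25.6% of all genes, and 3 had fewer, against 36.9%. With the full tumor list all 14 had more, as had 81.3% of all genes. Sox17, an early endoderm factor gene, had 2 in tumor and 0 in normal, and Cdx1, Cdx2 and Pdx1, which act in intestine and pancreas, had 1 in tumor and 0 in normal each. These counts are close to 0, and Cdx2 and Pdx1 are neighbours that share their best YAP site.

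Of the other GATA genes and cofactors, 5 of 6 had a YAP site of both tumor libraries (83.3%, against 79.2% of all genes), with a median of 1.5 sites against 3. Zfpm1, which encodes the GATA cofactor FOG1, had 12, and its best ranked 1239 and 3521 in tumor 1 and tumor 2. Gata1, Gata2 and Gata3, which act mainly in blood and other tissues, had 2, 2 and 1. H3K27ac summits at equal length numbered 7 in tumor and 4 in normal at Zfpm1, 0 and 2 at Gata1, and 0 and 1 at Gata2. Gata3 had 0 in each. At equal length 3 of the 6 had more in tumor and 2 fewer, against 25.6% and 36.9% of all genes. With the full tumor list all 6 had more, as had 81.3% of all genes. The median log2 ratio was then 2.77 (1.00 over all genes). In the full tumor list Gata1, Gata2 and Gata3 had 5, 16 and 8, and Gata4, Gata5 and Gata6 had 16, 14 and 6, so the ranges overlapped there.

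All 14 other forkhead genes had a YAP site of both tumor libraries, against 79.2% of all genes, with a median of 5.5 sites, close to the 6 of the members. Foxk1 had the best ranked, at ranks 117 and 74 in tumor 1 and tumor 2, followed by Foxk2 at 1093 and 397. Foxq1, known as a regulator of the surface mucin Muc5ac, had 8 sites, with a best rank of 1146 and 2728, and Foxf1, a mesenchymal forkhead gene, had 3. H3K27ac at equal length was lower in tumor at 8 of the 14 and higher at 2, against 36.9% and 25.6% of all genes. With the full tumor list 12 were higher and 2 lower, against 81.3% and 5.66% of all genes. The median log2 ratio was then 1.32 (1.00 over all genes). At equal length Foxp1 had 3 summits in tumor and 13 in normal, Foxq1 1 and 5, Foxn3 3 and 8, and Foxp4 11 and 5.

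Among 12 foregut and stomach factors, 11 had a YAP site of both tumor libraries (91.7%, against 79.2% of all genes). Their median was 3 sites, as over all genes. Nkx6-3, a gastric homeobox gene, had 4, Grhl2, a grainyhead factor gene of epithelia, had 6, Klf5 had 2 and Sox21 had 6, all with a site in the best 10% of both lists. H3K27ac at equal length was higher in tumor at 4 genes and lower at 4, against 25.6% and 36.9% of all genes. With the full tumor list it was higher at 10 and lower at 1, against 81.3% and 5.66% of all genes. At equal length there were 5 summits in tumor and 10 in normal at Elf3, 1 and 3 at Sox21, 2 and 5 at Pitx1 and 1 and 0 at Nkx2-1.

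Genes reported elsewhere as GATA or FOXA targets were taken as the last list. YAP sites of both tumor libraries lay at 11 of 12 (91.7%, against 79.2% of all genes), with a median of 3.5 against 3. There were 13 at Cdh1, the E-cadherin gene, 5 at Atp4a and 2 at Atp4b, the proton pump genes of parietal cells, and 6 at Shh. The best Cdh1 site ranked 544 and 816 in tumor 1 and tumor 2. H3K27ac at equal length was lower in tumor at 9 of the 12 and higher at 2, against 36.9% and 25.6% of all genes, with a median log2 ratio of -0.60. With the full tumor list 9 were higher and 1 lower, against 81.3% and 5.66% of all genes. The median was then 0.74, against 1.00 over all genes. At equal length the neighbours Tff1 and Tff2, trefoil peptide genes of gastric mucus cells, shared a count of 1 in tumor and 4 in normal, Atp4a had 7 and 8, Atp4b 2 and 3, Muc2 1 and 3, and Alb, a liver gene, 0 and 1. For the 6 members the median was -0.29 and over all genes it was 0.00.

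The counts over the 6 lists placed Gata4 beside genes of other kinds. The 5 genes nearest to it by the Euclidean distance of log2(summits + 1) over the 6 libraries were Snx6 at 0.14, H2bc6 at 0.17, H4c4 and Ccdc57 at 0.18, and Cops7a at 0.28. They had 11 to 13 YAP sites of both tumor libraries and 2 summits of normal 2 each. The genes were picked by their counts in these libraries, so this likeness follows from the choice and is no separate result. H2bc6 and H4c4 belong to a histone gene cluster.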

How the data were processed

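Positions were taken from the 6 deposited summit lists, each with 1 bp summits and the authors' score, the −log10 of p or q (which one is not stated). Bowtie2, MACS2 and GRCm38 (mm10) are named per the submitters' processing notes; their versions, thresholds and control libraries were not stated in any source used. Lists were called per library, since each has its own summits and peak names. Reads were 50 bp pairs per the labels. Scores only ranked or filtered summits within a list.

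Only autosomal, X and Y summits entered, and they were set against RefSeq genes of the same build with Python 3.11.15, numpy 2.4.6 and pandas 2.3.3 (figures with matplotlib 3.10.9). YAP sites of both libraries were matched one to one within 200 bp. H3K27ac lists were compared at equal length and in full. Counting and matching were tested on simulated summits. The 6 genes and the 5 lists were chosen with earlier results of these data known. All 6 members, window neighbours, up to 4 genes per list by best YAP rank and up to 4 by H3K27ac difference, and the 5 genes most like the member with most sites could be named. List genes without a YAP site, Gata3, Mipol1 and Hnf4a's H3K27ac were added after values were seen. Some genes that the rule names are not reported here.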

Additional observations from a re-analysis of the deposited data

How the results depend on the processing

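All 6 genes kept a YAP site of both tumor libraries under each of the alternatives run for that count, a higher score minimum and other windows and distances among them. Most genes did too: 17330 of all 21887 had a site in the main setting, and 13277 to 18328 had one under the alternatives. The number of sites, 41, became 15 at a score of at least 10, 20 within 10 kb and 65 within 100 kb. The YAP difference between tumor and normal, 51.5 summits over the 6 loci, was 0 with all lists at the shortest length (-1 at Gata4), 42 and 23.5 at scores of at least 5 and 10, 25 and 85 within 10 and 100 kb, and 7.5 grouped by peak-name words. With the replicate block it was 51.5, and the smallest exact p was 0.5. The deviations of same-numbered libraries had r = 0.03 across 21887 genes, which are not independent. Only 5.96% and 14.9% of genes had a normal 1 or normal 2 summit within 50 kb, so this r cannot decide whether libraries were paired. The replicate numbers were treated as names and not as pairs.

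The H3K27ac log2 ratio of -0.19 over the loci turned positive with full lists (0.73), within 10 kb (0.05) and in full lists at a score of at least 10 (1.08). Full lists gave 0.91 at Gata5, 0.49 at Gata6 and 1.44 at Foxa3, and with the score minimum 1.17, 1.22 and 0.87, and 0.74 at Foxa2. With summits closer than 2 kb merged Foxa2 had 0.32. Genes with fewer summits in tumor, 4, numbered 1 with full lists, 0 with the score minimum and 2 within 10 kb, and genes with more, 1, numbered 5, 6 and, within 100 kb, 0, and 2 with merging. The full tumor list held 66896 summits and the normal list 22574, while the ratio within 10 kb used the tumor list at equal length. The causes of these changes were not tested. Unknown depth limits every comparison of list lengths.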
